A study of Mus musculus with 10 samples.

Results

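Open chromatin of a day 6 medullary fraction of mouse thymic epithelial cells (TEC), labelled mTEC4, was compared with that of TEC from embryonic day 15 (E15) and embryonic day 17 (E17). The comparison uses 6 of the 10 libraries of the series, 2 of mTEC4 and 4 embryonic (2 each of E15 and E17). Their lists held 585780 peaks, which merged into 256761 regions. A region was new when both mTEC4 lists and no embryonic list called it, lost when all 4 embryonic lists and neither mTEC4 list did, and retained when all 6 lists called it. New regions numbered 7883 (3.07% of merged regions), lost regions 40756 (15.9%) and retained regions 12989 (5.06%).

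All libraries came from wild-type C57BL/6 mice, and no transgene or treatment is named in the labels. The assay was ATAC-seq, where open DNA is cut and tagged by a transposase, on TEC that were sorted after the thymus had been dissociated with enzymes. The labels do not define mTEC4 by surface markers, and the titles of the embryonic libraries name no fraction. Inside the lists, peak names of the mTEC4 libraries carry the tag aTEC and those of the embryonic libraries the tag hi, and groups were taken from the titles. The mTEC4 and embryonic libraries differ in age and in the sorted cells at once, and the part of each cannot be told apart. The labels do not say whether the 2 libraries of a group came from separate animals, so the spread between them may be technical.

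The thymic epithelium grows from pharyngeal endoderm under the transcription factor Foxn1, and its cortical and medullary cells guide the positive selection and the tolerance of T cells. Cortical TEC supply the Notch ligand Dll4, chemokines and specialised proteases, while medullary TEC under Aire display proteins of other tissues. Some medullary cells take on the features of peripheral cell types, among them tuft cells, chemosensory cells that depend on Pou2f3 and signal through a taste-like cascade. In a published scheme for medullary TEC, the fourth class is the tuft-like one, but the labels do not say whether mTEC4 refers to it.

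Promoters that separate the mTEC4 from the embryonic lists are shown as the 250 bases before the transcription start, on the gene's strand (RefSeq, GRCm38.p6, which is mm10). The new ones belong to Avil (advillin, an actin-binding protein of tuft cells, chr10:127000459-127000708, plus strand), Plcb2 (the phospholipase of taste signalling, chr2:118728439-118728688, minus strand), Sh2d7 (an SH2 domain protein gene, chr9:54533873-54534122, plus strand) and Hepacam2 (a cell adhesion protein gene, chr6:3494499-3494748, minus strand). Hepacam2 was added after its values were seen. Capitals mark the letters of 18 searched motifs, on either strand, in these windows.
Avil: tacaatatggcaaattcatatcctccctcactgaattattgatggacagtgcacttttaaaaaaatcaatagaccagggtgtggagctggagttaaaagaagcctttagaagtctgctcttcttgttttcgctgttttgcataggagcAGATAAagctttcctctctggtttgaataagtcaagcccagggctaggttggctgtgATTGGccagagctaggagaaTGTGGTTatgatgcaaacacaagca
Plcb2: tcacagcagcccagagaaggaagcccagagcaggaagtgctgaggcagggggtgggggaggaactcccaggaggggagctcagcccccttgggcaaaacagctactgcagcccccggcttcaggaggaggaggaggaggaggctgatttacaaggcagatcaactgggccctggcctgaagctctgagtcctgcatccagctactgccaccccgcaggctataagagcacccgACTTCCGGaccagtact
Sh2d7: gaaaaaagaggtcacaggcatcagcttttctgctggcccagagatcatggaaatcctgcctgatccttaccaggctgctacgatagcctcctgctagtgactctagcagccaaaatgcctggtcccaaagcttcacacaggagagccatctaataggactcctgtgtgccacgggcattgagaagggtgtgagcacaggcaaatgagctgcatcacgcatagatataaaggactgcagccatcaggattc
Hepacam2: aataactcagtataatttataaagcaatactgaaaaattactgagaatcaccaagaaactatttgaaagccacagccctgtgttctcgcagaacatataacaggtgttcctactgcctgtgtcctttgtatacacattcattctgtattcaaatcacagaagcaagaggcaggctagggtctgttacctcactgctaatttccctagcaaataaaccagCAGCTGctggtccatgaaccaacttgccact

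The lost ones belong to genes of TEC identity and cortical function. They are Foxn1 (chr11:78386609-78386858, minus strand), Psmb11 (the thymoproteasome subunit, chr14:54625060-54625309, plus strand), Ctsl (cathepsin L, a protease that prepares peptides for CD4 selection, chr13:64370521-64370770, minus strand) and Dll4 (chr2:119325534-119325783, plus strand). They are shown so that the letters of both sets can be read side by side.
Foxn1: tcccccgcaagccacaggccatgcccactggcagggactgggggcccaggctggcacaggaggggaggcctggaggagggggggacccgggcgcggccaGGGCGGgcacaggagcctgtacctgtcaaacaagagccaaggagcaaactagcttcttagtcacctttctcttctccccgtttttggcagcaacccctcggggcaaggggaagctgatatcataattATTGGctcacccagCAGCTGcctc
Psmb11: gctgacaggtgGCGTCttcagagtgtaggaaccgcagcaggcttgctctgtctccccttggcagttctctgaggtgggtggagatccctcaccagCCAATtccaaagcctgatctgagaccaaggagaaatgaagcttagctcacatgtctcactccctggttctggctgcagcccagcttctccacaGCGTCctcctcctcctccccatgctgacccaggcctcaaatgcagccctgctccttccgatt
Ctsl: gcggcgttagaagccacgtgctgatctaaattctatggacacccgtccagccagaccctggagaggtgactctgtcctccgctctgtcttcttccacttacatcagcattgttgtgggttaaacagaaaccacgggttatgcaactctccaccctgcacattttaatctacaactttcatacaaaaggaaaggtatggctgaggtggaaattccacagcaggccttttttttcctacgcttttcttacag
Dll4: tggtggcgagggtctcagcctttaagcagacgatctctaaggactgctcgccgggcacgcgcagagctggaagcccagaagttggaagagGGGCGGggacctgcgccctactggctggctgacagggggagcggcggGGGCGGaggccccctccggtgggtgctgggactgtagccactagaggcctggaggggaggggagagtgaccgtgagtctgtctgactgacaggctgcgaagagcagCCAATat

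The capitals in Avil are a CCAAT box (CCAAT, here as its reverse complement), a RUNX motif (TGTGGTT) and a GATA motif (AGATAA), which 35.4%, 3.82% and 8.81% of all 21263 promoter windows of the same length held on either strand. The capitals in Plcb2 are an ETS motif (CCGGAAGT, as its reverse complement), held by 3.79% of all windows, and those in Hepacam2 an E-box (CAGCTG), held by 12.1%. In Foxn1 they are a GC box (GGGCGG, held by 42.6% of windows), a CCAAT box and an E-box, and in Dll4 there are 2 GC boxes and a CCAAT box. Psmb11 held a CCAAT box and 2 copies of the FOXN1 core (GACGC, as its reverse complement), which 27.7% of windows held. Sh2d7 and Ctsl held none of these letters, which says nothing of the factors themselves. The other motifs searched, on both strands, were AP-1 (TGANTCA), forkhead (TGTTTAC), octamer (ATGCAAAT), GRHL (AACCGGTT), TEAD (GGAATGT), CRE (TGACGTCA), and those of NRF1, CTCF, NF-kB, p63 and IRF. The matches in the 8 windows did not overlap each other.

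The deposited lists carry peaks and no read counts, so the depth of each library is unknown, and a missing peak means only that none was called. In libraries of many cells, fewer open cells and less signal per cell cannot be told apart. The mTEC4 lists held 70144 and 71192 peaks, against 105204 and 101357 in E15 and 86237 and 151646 in E17. Median peak width was 114 and 115 bp in mTEC4 and 185 to 200 bp in the embryonic lists, and peaks whose −log10 q reached 5 were 6.33% and 12.4% of the mTEC4 lists against 41.7% to 48.8% of the embryonic lists. The other day 6 fractions, mTEC1 and mTEC2, were close to mTEC4 in both. Their widths were 135 and 115 bp in mTEC1 and 115 and 106 bp in mTEC2, with 8.91% to 14.3% of such strong peaks. The mTEC4 and embryonic values did not overlap for either measure (exact two-sided permutation p = 0.0667 for each, the smallest that 15 arrangements of 2 and 4 libraries can give). No measure can therefore pass 0.05 here.

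The mTEC4 libraries resembled each other little. The sequence they shared was 17.4% of the sequence covered by either (the Jaccard index). The embryonic pairs shared 45.5% to 57.2%. With the embryonic lists, mTEC4 replicate 1 shared 5.99% to 9.15% and mTEC4 replicate 2 shared 10.8% to 16.3%. Replicate 2 also shared 20.8% with mTEC1 replicate 2, more than with its own partner. The mTEC4 label thus does not set its 2 lists apart from the other day 6 lists by shared sequence. Region counts and the tuft gene count below are also given with a library left out where that moves them. Promoter classes and most gene lists were not counted again with a library left out.

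To set the lists at 1 length, each was reduced to its 70144 strongest peaks by −log10 q, the length of the shortest list. The weakest kept peak had a −log10 q of 1.002 in mTEC4 replicate 1 and 1.09 in mTEC4 replicate 2, against 3.02 and 2.94 in E15 and 2.43 and 5.01 in E17. The strongest dropped peak had the same value to 4 digits in each list that lost peaks. At this length there were 8718 new regions (4.68% of 186466), 24233 lost regions (13% of the same) and 12218 retained regions (6.55%). Lost regions therefore outnumbered new ones at both lengths. The count of new regions rests on the demand for both mTEC4 lists: without mTEC4 replicate 1 it was 41266, and without mTEC4 replicate 2 it was 51279, beside 42408 and 51090 lost regions, so that without replicate 2 new regions were slightly more numerous than lost ones. Retained regions came to 23310 without mTEC4 replicate 1. With 20000 peaks per list there were 1184 new, 3667 lost and 4400 retained regions, and with 5000 there were 471 new, 434 lost and 763 retained. At 5000 peaks the order of new and lost was turned round.

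**Figure D1:**
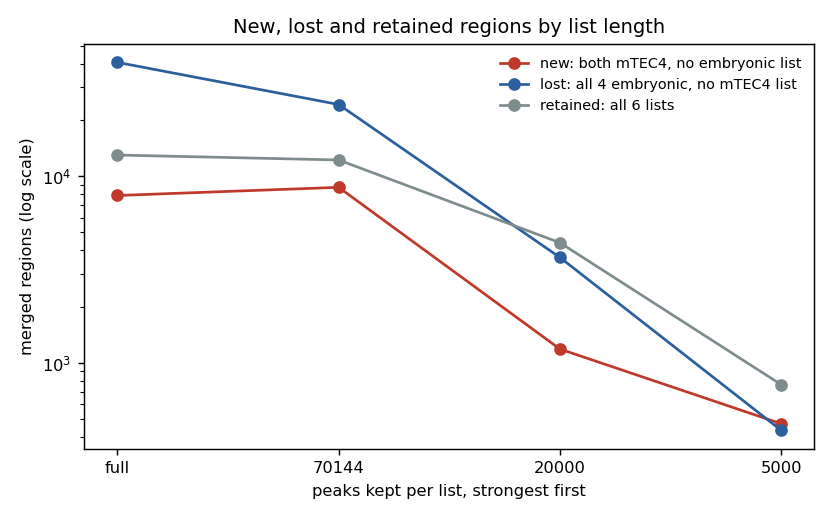
The number of new, lost and retained regions (y axis, log scale) against the peaks kept per list, strongest first (x axis). Counts of all 3 classes are lower in shorter lists from 70144 peaks down, and at 5000 peaks per list the 471 new regions slightly outnumber the 434 lost ones.

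Seen from the embryonic lists, 65716 regions were called in all 4, of which 19.8% were also called in both mTEC4 lists, 18.2% in 1 of them and 62.0% in neither. At equal length these shares were 26.5%, 21.0% and 52.5% of 46131 regions. Regions of both E15 lists that neither E17 list called numbered 2061, of which 4.51% were called in both mTEC4 lists and 84.4% in neither. Regions of both E17 lists that neither E15 list called numbered 5069, of which 1.10% were called in both mTEC4 lists and 94.2% in neither. The lists of the younger stage thus held a larger share of stage-limited regions that mTEC4 also called, and at equal length the shares called in both were 4.77% for E15 and 0.634% for E17.

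Seen from mTEC4, peaks of the strongest decile mostly lay in embryonic regions and weak peaks did not. In the strongest decile of the list, 62.8% of peaks in mTEC4 replicate 1 and 90.1% in replicate 2 lay in regions called in all 4 embryonic lists. In the weakest decile these shares were 3.47% and 9.25%. In decile 2 of replicate 1, 44.3% of peaks lay in such regions and 49.9% in no embryonic region. In decile 2 of replicate 2 these were 71.7% and 22.7%. Peaks in no embryonic region made up 73.0% of the whole list in replicate 1 and 57.9% in replicate 2. The share of mTEC4 peaks absent from embryonic lists thus rose as peaks became weaker, and replicate 1 held more of them. In decile 3 it was already 69.7% in replicate 1, against 40.1% in replicate 2.

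**Figure D2:**
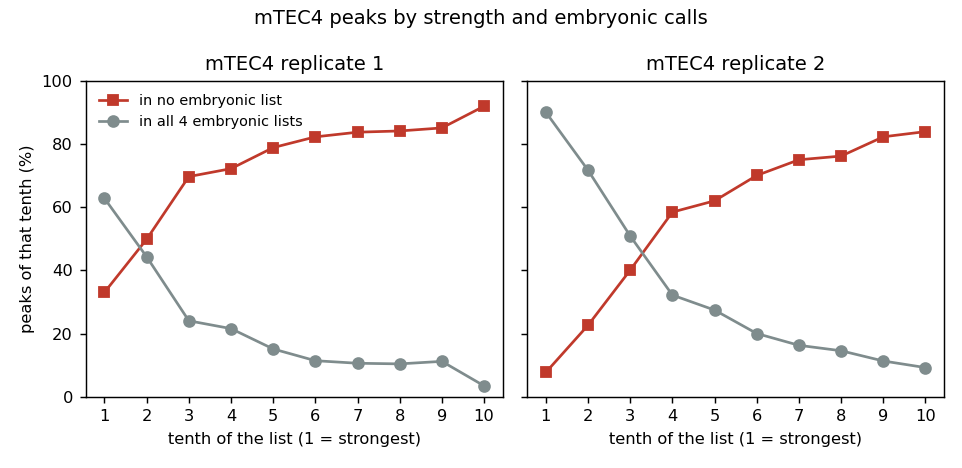
Peaks of each mTEC4 list in deciles of −log10 q (x axis, 1 is the strongest), with the percent in no embryonic list and in all 4 embryonic lists (y axis). Tied values make the lower deciles unequal in size. The strongest decile is 62.8% shared with all 4 embryonic lists in replicate 1 and 90.1% in replicate 2.

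New, lost and retained regions lay in different places. Gene boundaries, meaning within 1 kb of a start site (or of either gene end where RefSeq promoters give no start), held 0.685% of new regions, 7.29% of lost regions and 65.4% of retained regions, beside 7.55% of all merged regions. Regions inside gene spans made up 29.3% of new, 47.9% of lost and 15.0% of retained regions. The remainder, 70.0% of new, 44.9% of lost and 19.6% of retained regions, lay elsewhere. Median width was 303 bp for new, 387 bp for lost and 731 bp for retained regions. Chromosome X held 7.99% of new regions, 1.88% of lost regions and 2.49% of retained regions, beside 4.12% of all. Of all peaks it held 6.38% and 5.065% in the mTEC4 lists and 2.24% to 2.47% in the embryonic lists. In mTEC1 it held 6.36% and 4.13%, and in mTEC2 3.77% and 3.245%.

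The position of new regions depended on list length. Among the 471 new regions from 5000 peaks per list 61.4% lay at gene boundaries, while at 70144 peaks the share was 1.06%. A region can be new at 5000 peaks when weaker embryonic peaks cover it, so a new region of this set need not lack an embryonic call in the full lists.

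The mTEC1 and mTEC2 lists took no part in the choice of regions, and they called retained regions nearly always. Retained regions were called in 85.7% and 93.7% of cases in mTEC1 and in 97.4% and 82.7% in mTEC2. Lost regions were called in 8.16% and 31.6% of cases in mTEC1 and in 50.7% and 17.1% in mTEC2. At least 1 of these lists called 63.01% of lost regions, beside 38.0% of all merged regions. New regions were called in 51.2% and 21.3% of cases in mTEC1 and in 22.7% and 7.10% in mTEC2. At least 1 of these lists called 64.6% of new regions, and 2789 of the 7883 were called in none. The mean of the 4 shares by library for new regions, 25.6%, was 11.4% without mTEC4 replicate 1 and 11.7% without mTEC4 replicate 2. For all merged regions the shares were 16.4% and 18.5% in mTEC1 and 25.5% and 11.4% in mTEC2. The 2 lists of a fraction thus differed from each other in how many new and lost regions they called.

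**Figure D3:**
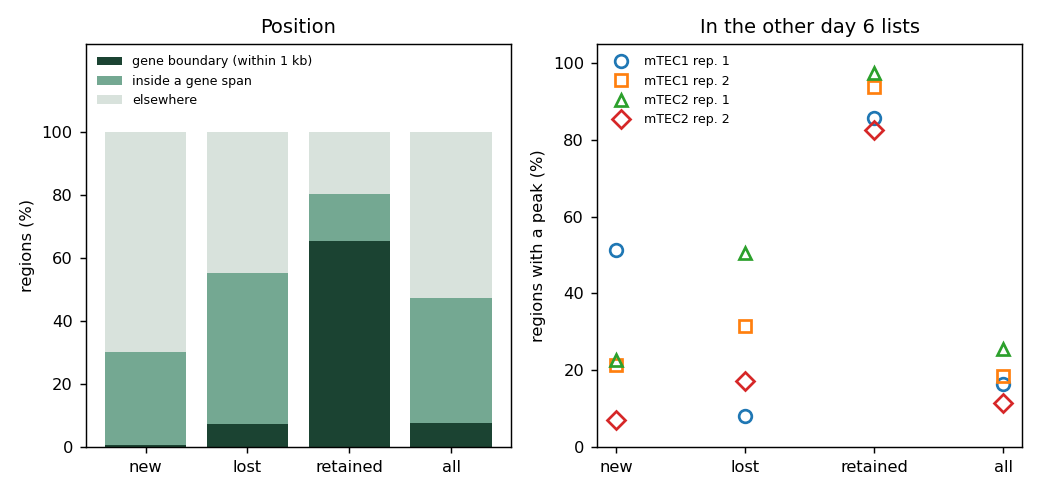
Left, the percent of new, lost, retained and all merged regions at gene boundaries, inside gene spans and elsewhere. Right, the percent of the same regions with a peak in each of the mTEC1 and mTEC2 lists, 1 symbol per library. Retained regions stand at 65.4% at gene boundaries and at 82.7% or more in the other day 6 lists.

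Promoters were classed by the same rule. A new promoter needs a peak in both mTEC4 lists, which shared little, and a lost one needs a peak in neither. The counts of new and lost promoters are thus not measured alike. Of 21263 promoter windows (250 bases before to 50 after the start) of 17492 genes, 19 were new (0.0894%), 1774 were lost (8.34%) and 7624 were retained (35.9%). At equal length 35 were new (0.165%), 1069 lost (5.03%) and 7480 retained (35.2%). The median GC content of the 250 bases before the start was 54.4% in new, 59.2% in lost and 62.4% in retained promoters, and 46.0% where no list had a peak. Their median number of CpG was 3 in new, 11 in lost, 19 in retained promoters and 2 in those without a peak. Retained promoters held the GC box in 69.8% of cases and the ETS motif in 7.42%, lost promoters in 50.6% and 1.80%, and those without a peak in 10.1% and 0.625%. New promoters held the GC box in 2 of 19 cases. At least 1 of the mTEC1 and mTEC2 lists called 65.6% of lost and 42.1% of new promoters, beside 55.0% of all. These shares are descriptions, and no test was made.

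Among the 19 new promoters were those of the tuft genes Avil, Plcb2 and Sh2d7, whose sequences are printed above. The peak at Avil had a −log10 q of 1.835 and 1.18 in mTEC4, that at Plcb2 1.70 and 1.73, and that at Sh2d7 1.26 and 1.66. These values lie near the weakest peaks of the lists. At Hepacam2 they were 2.26 and 8.68, the highest mTEC4 replicate 2 value of the 4 promoters. No embryonic, mTEC1 or mTEC2 list called any of these 4 promoters, and all 4 were also new at equal length.

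The 3 tuft promoters were 14.3% of the 21 tuft genes with a promoter window, beside 0.109% of all genes with one. At equal length they were again 3 of 21, beside 0.194%. Among T cell genes 1 of 16 (6.25%) had a new promoter at both lengths, Satb1, which also had a lost one. A retained promoter was found for 2 of the 21 tuft genes (9.52%, beside 39.1% of all genes), Il17rb (a receptor chain for interleukin 25) and Runx1 (a transcription factor). Trpm5, the cation channel at the end of the taste-like cascade, had a promoter peak in mTEC4 replicate 2 alone, with a −log10 q of 1.18, against 5.57 and 12.6 in E15 and 9.57 and 22.1 in E17. Promoters of Gnat3 and Chat were called in none of the 6 lists.

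Lost promoters included those of 6 of the 16 TEC identity and cortical genes with a window, or 37.5%, beside 8.39% of all genes. With full lists this was not particular to these genes. Ccl21a medullary genes had 3 of 8 (37.5%), organogenesis factors 3 of 11 (27.3%) and mesenchymal genes 2 of 9 (22.2%). At equal length these 3 lists had 0 of 8, 2 of 11 and 0 of 9. At Psmb11 no mTEC4 list had a peak, against a −log10 q of 15.3 and 13.3 in E15 and 15.7 and 33.5 in E17. At Ctsl there was likewise no mTEC4 peak, against 21.1 and 20.2 in E15 and 12.5 and 22.8 in E17. Both promoters were called again in other day 6 lists, Psmb11 in 3 and Ctsl in 1. At Dll4 no mTEC4 list had a peak, against 10.99 and 11.6 in E15 and 11 and 12.6 in E17, and all 4 of the other day 6 lists called it. Enpep, an aminopeptidase gene of cortical TEC, had 6.24 and 5.26 in E15 and 5.55 and 15.7 in E17 and no mTEC4 peak.

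The promoters of Foxn1 and Cxcl12, a chemokine gene for thymus-seeding cells, were lost with full lists only. Foxn1 had no mTEC4 peak, against 2.67 and 2.63 in E15 and 6.89 and 6.65 in E17, and Cxcl12 had none, against 3.03 and 4.75 in E15 and 2.04 and 4.18 in E17. No mTEC1 or mTEC2 list called these promoters either. At equal length 4 of the 16 genes remained lost (25%, beside 5.11% of all genes), since some weak embryonic peaks were no longer counted. Another promoter of Ccl25, a chemokine gene of TEC, was lost, while its CpG-rich window of 45 CpG was retained with a −log10 q of 5.58 and 15.4 in mTEC4, 25.5 and 25.4 in E15 and 20.3 in both E17 lists.

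Retained promoters included that of Aire, with a −log10 q of 1.48 and 1.62 in mTEC4, against 9.34 and 8.23 in E15 and 12.4 and 19.2 in E17. That of Krt8, a keratin gene of simple epithelia, had 2.73 and 2.30 in mTEC4, against 23.2 and 24.9 in E15 and 27.7 and 44.6 in E17. These q values belong to their own lists and depend on depth, so they are not compared as levels of opening. Pax9, a pharyngeal pouch factor gene, was retained, while Pax1, its relative, was lost with no mTEC4 peak, against 10.4 and 10.6 in E15 and 7.74 and 9.75 in E17. All 12 housekeeping genes with a window were retained, as were 12 of 14 cell cycle genes and 14 of 17 NF-kB genes, beside 39.1% of all genes.

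**Figure D4:**
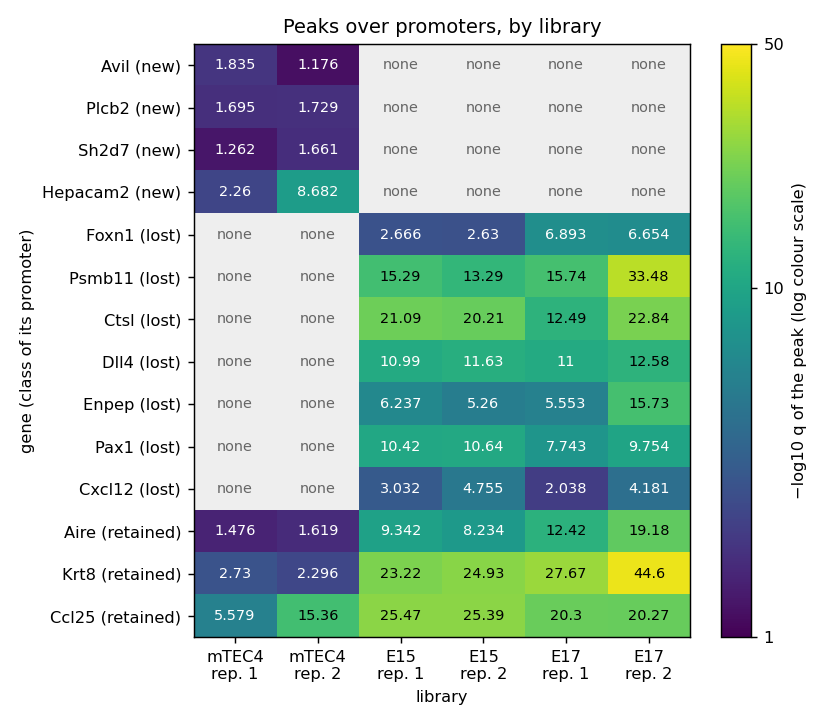
The −log10 q of the peak over named promoters (rows, with the class of the promoter) in each library (columns), on a log colour scale, with none where no peak was called. New promoters have values only in mTEC4, mostly under 2, and lost promoters only in the embryonic lists, up to 33.5 at Psmb11.

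Each region was then assigned to the nearest protein-coding gene within 100 kb. Of 21900 protein-coding genes 16.7% were nearest to a new region, 54.3% to a lost region and 46.1% to a retained region. Genes with many regions of a class were mostly long. Genes with many new regions included Dmd (dystrophin) with 11 and Cntnap2, Il1rapl1, Ptprd and Spock3 with 9 each, and the 10 highest spanned 406 to 2390 kb. Those with the most lost regions were Auts2 with 50, Dlg2 with 38 and Nfia and Tenm4 with 36 each. Atg7, an autophagy gene, and Celf2 had the most retained regions, with 8 each. Genes nearest to a new region had a median length of 50.1 kb, those nearest to a lost region 30.6 kb, and all genes 17.2 kb.

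With full lists, tuft genes had the largest share with a new region among the 20 lists, and at equal length the mesenchyme list had the same share (6 of 13 genes). New regions lay nearest to 12 of 26 tuft genes (46.2%, beside 16.7% of all genes), and the same count was found at equal length (beside 18.5%) and within 25 kb (beside 13.2%). The list's median gene length was 22.0 kb, beside 17.2 kb for all genes. The 12 genes had 15 new regions. Of these 9 (60%) were called in none of the mTEC1 and mTEC2 lists, beside 36.9% of the 5084 new regions assigned to any gene. Such regions lay nearest to 9 tuft genes (34.6%), beside 7.39% of all genes. This was not particular to tuft genes. Of new regions at Aire-stage medullary genes 5 of 6 were called in none of these lists, and at organogenesis factors 5 of 8. They lay nearest to 20% and 27.8% of the genes of those lists. At T cell genes and at B cell genes it was 0 of 3 new regions each.

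Some genes of the tuft cascade had new regions and others did not. Trpm5 had 2 lost regions and no new one, and the listed genes Gnb3 and Gng13 had no new one. Of the 12 tuft genes with a new region, 4 had no lost region, beside 959 of 3655 among all genes. Gnat3, the taste G protein gustducin, had 1 new region inside the gene with a −log10 q of 5.33 and 3.37 in mTEC4, and another 1111 bp outside it with 1.26 and 1.34. In its span with 10 kb on each side Gnat3 had 3 and 5 regions in mTEC4, against 1 and 1 in E15 and 0 and 1 in E17. The 2 new regions are part of both mTEC4 counts and of no embryonic count by the class rule. The locus count is therefore no separate support. Plcb2 and Avil had their new region at the promoter. Sh2d6, a gene of the same SH2 domain family as Sh2d7, had 2 new regions inside the gene, with 1.33 and 3.77 and with 1.26 and 1.62. Sh2d7 itself was assigned 0 new regions and 1 lost region by nearest gene, although its promoter window was new.

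Genes of tuft cell products and signals were also among the 12. Il25, the cytokine that tuft cells release, had a new region 1021 bp from the gene, with a −log10 q of 1.51 and 3.49 in mTEC4, and 1 lost region. Alox5ap, needed for leukotriene synthesis, had 2 new regions, with 1.32 and 2.14 and with 1.33 and 1.58. Chat, which makes acetylcholine, had 1 with 1.80 and 1.18. The others were Bmx (a Tec family kinase), Gfi1b (a transcriptional repressor), Vav1 (a signalling protein of haematopoietic cells), Runx1 and Dclk1, a kinase that marks tuft cells. The strongest of these lay 7496 bp from Vav1, with 4.84 and 5.82. Bmx, Gfi1b, Runx1 and Vav1 also serve blood cells, and Gfi1b stands in the erythroid list too.

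The tuft loci as a whole did not hold more regions in mTEC4, and neither did all protein-coding genes. The 26 tuft loci had a mean of 2.462 and 3.5 regions in mTEC4, against 4.231 to 6.846 in the embryonic libraries. For all genes these means were 1.996 and 2.399, against 3.537 to 5.642. At equal length the tuft means were 2.462 and 3.385, against 3.385 to 3.577. Those of all genes were then 1.997 and 2.38, against 2.906 to 3.002. Pou2f3, the tuft cell transcription factor, had 0 and 6 regions in mTEC4, against 10 and 11 in E15 and 9 and 14 in E17, and 5 of its regions were lost. Dclk1 had 5 and 4 regions in mTEC4, against 16 and 16 in E15 and 11 and 22 in E17, with 8 lost and 1 new. Trpm5 had 1 and 2 regions in mTEC4, against 4 and 5 in E15 and 6 and 6 in E17. The groups did not overlap at these 3 loci. Avil had 3 and 6 regions in mTEC4, against 4 in each embryonic library. Lost regions lay nearest to 16 of 26 tuft genes (61.5%), beside 54.3% of all genes.

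The tuft count leaned on weak peaks and on the demand for both mTEC4 lists. Counting only peaks whose −log10 q reached 2, it was 3 genes, beside 2.69% of all genes, and at a minimum of 5 it was 0, beside 0.237%. Without mTEC4 replicate 1 it was 20 genes, beside 50.9% of all genes, and without mTEC4 replicate 2 it was 19, beside 52.4%. These settings were added after the data were seen.

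Genes of TEC identity and cortical function had lost regions almost throughout. They lay nearest to 19 of 20 genes (95.0%, beside 54.3% of all genes) and to 18 of 20 at equal length (90%, beside 44.3%), with a median of 3.5 lost regions per gene, beside 1 for all genes. Cxcl12 had 12 lost regions, Kitl (stem cell factor) 11, Enpep 10, Il7 (a cytokine for developing T cells) 8, Cd83 7, and Ctsl and Ccl25 5 each. Cxcl16, a chemokine gene chosen after its values were seen, was the gene without one. New regions lay nearest to 3 of the 20 genes (15.0%, beside 16.7% of all genes), Enpep with 2 and Kitl and Krt18 with 1 each. Retained regions lay nearest to 13 of 20 (65.0%, beside 46.1% of all genes), and Epcam, the epithelial surface protein gene, had 5, the most of any listed gene.

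Foxn1 had 0 regions in both mTEC4 lists in its span with 10 kb on each side, against 7 and 8 in E15 and 8 and 10 in E17, and 7 of its 10 merged regions were lost. At equal length it had 0 and 0 in mTEC4, against 5 and 6 in E15 and 7 and 7 in E17. Psmb11 had 0 and 1 in mTEC4, against 2 and 2 in E15 and 4 and 5 in E17. Trp63, which encodes the epithelial regulator p63, had 1 and 4 in mTEC4, against 22 and 19 in E15 and 16 and 31 in E17, with 10 lost and 1 new. Ccl21a, a medullary chemokine gene, had 2 and 2 in mTEC4, against 4 and 4 in E15 and 5 and 5 in E17. The groups did not overlap at these 4 loci with full lists.

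Aire had 2 and 4 regions in mTEC4, against 5 and 5 in E15 and 3 and 5 in E17, and the groups overlapped. At equal length the Aire locus had 2 and 4 in mTEC4, against 2 in each embryonic library, so the direction of its mean difference changed with list length (-1.5 regions with full lists, 1 at equal length). Over the 357 listed genes, the mTEC4 mean was below the embryonic mean at 320 and above it at 28 with full lists, and at 262 and 74 at equal length.

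Lists of development and signalling, of Ccl21a medullary genes and of mesenchymal genes were close to the TEC identity list in lost regions. WNT, NOTCH, BMP and FGF genes had them at 25 of 26 (96.2%, beside 54.3% of all genes), with 15 at the WNT co-receptor gene Lrp6 and 11 at Bmp7. Organogenesis factors had them at 17 of 18 (94.4%), with 9 at Pax1. Ccl21a medullary genes and mesenchymal genes had them at 12 of 13 each (92.3%). At equal length the Ccl21a medullary list had 10 of 13 and the mesenchymal list 11 of 13, beside 44.3% of all genes. New regions lay nearest to 2 of 26 signalling genes (7.69%) and to 6 of 18 organogenesis factors (33.3%), beside 16.7% of all genes, among them Isl1 with 2 (a LIM homeodomain factor gene) and Tbx3 with 2.

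Cell cycle, housekeeping and NF-kB genes mostly lay near retained regions. Retained regions lay nearest to 14 of 16 cell cycle genes (87.5%), 15 of 16 housekeeping genes (93.8%) and 17 of 20 NF-kB genes (85.0%), beside 46.1% of all genes. The inhibitor gene Nfkbia, the NF-kB subunit gene Nfkb1 and Bcl3 had 4 each, as did Fos, an AP-1 subunit gene, and the NOTCH target Hes1. Lost regions lay nearest to 5 of 16 cell cycle genes (31.2%) and to 15 of 20 NF-kB genes (75.0%), beside 54.3% of all genes. Nfkb1 had 13 lost regions.

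**Figure D5:**
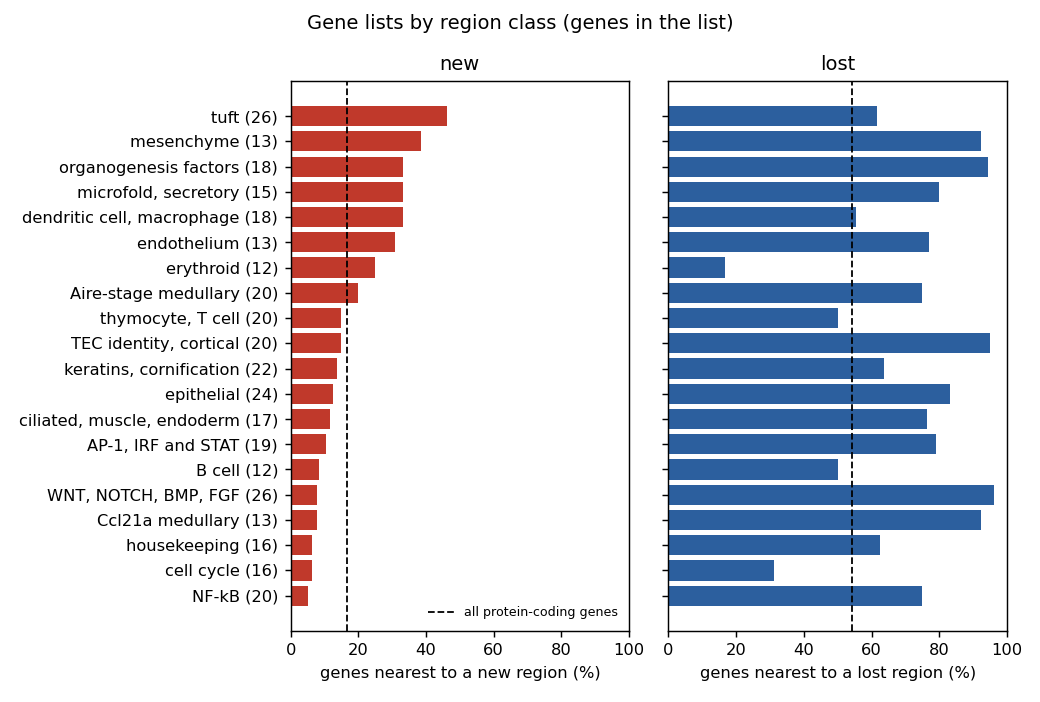
For each of 20 gene lists (rows, number of genes in brackets), the percent of genes nearest to a new region (left) and to a lost region (right), with a dashed line at 16.7% and 54.3% for all protein-coding genes. Tuft genes have the highest share with a new region (46.2%), and WNT, NOTCH, BMP and FGF genes the highest with a lost region (96.2%).

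Markers of other cells were counted beside these results. Over 5 markers of dendritic cells and macrophages (Itgax, Adgre1, Csf1r, Spi1 and Ptprc) there were 16 and 19 regions in mTEC4, against 8 to 13 in the embryonic libraries, with 4 and 5 of the 5 genes called in mTEC4 and 4 or 5 in the embryonic libraries. Csf1r, a growth factor receptor gene of macrophages, was at 0 in mTEC4 replicate 1. At equal length there were 16 and 18 in mTEC4, against 5 to 7. Adgre1, the F4/80 gene, had 5 and 4 regions in mTEC4, against 1 and 1 in E15 and 0 and 0 in E17, and Itgax, the CD11c gene, had 5 and 3, against 1 and 1 and against 2 and 2. The longer list of 18 such genes did not lie higher in mTEC4 with full lists, with 42 and 43 regions in mTEC4, against 46 to 74 in the embryonic libraries. Cut to equal length, this list had 42 and 42 in mTEC4, against 35 and 38 in E15 and 43 and 44 in E17. The mean over all protein-coding genes was then 1.997 and 2.38, against 2.906 to 3.002. Of the 18 genes 6 (33.3%) were nearest to a new region with full lists, beside 16.7% of all genes. The part of such cells in the tuft result was not tested.

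Other marker sets did not lie above the embryonic libraries in both mTEC4 lists. Over 5 T cell markers there were 4 and 11 regions in mTEC4, against 11 to 16, over 3 B cell markers 8 and 6, against 12 to 20, and over 3 erythroid markers 5 and 5, against 7 to 9. Over 3 endothelial markers there were 6 and 15, against 10 to 18, and over 3 mesenchymal markers 3 and 8, against 10 to 17. The markers of TEC themselves were lower in both mTEC4 lists, as was the mean over all protein-coding genes. That mean was 1.996 and 2.399 regions per gene in mTEC4, against 3.537 to 5.642 in the embryonic libraries. There were 9 and 13 regions over 4 markers of all TEC, against 28 to 40, and over 6 tuft markers 15 and 25, against 38 to 56. Over 7 medullary markers there were 9 and 13, against 28 to 44, and over 5 cortical markers 8 and 12, against 25 to 32. The region counts thus do not single out a medullary or tuft label for mTEC4. The embryonic libraries, whose titles name no fraction, held markers of both cortex and medulla.

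The strongest new regions were narrow and lay outside promoters. In both mTEC4 lists, −log10 q reached 5 at 58 of the new regions, with a median width of 104.5 bp, and 41 of them were under 120 bp wide. The leading one, 79 bp wide at chr5:106176781-106176859, lay 260962 bp from Zfp326, with a −log10 q of 70.9 and 58.7. Another lay 1480 bp from Tmcc3 at chr10:94592435-94592539, with 58.35 and 53.2. Both were called in 3 other day 6 lists. Lost regions of that strength in all embryonic lists numbered 11543, with a median width of 333 bp, and retained ones in all 6 lists numbered 2578, with a median width of 816.5 bp and 78.7% at gene boundaries.

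The strongest lost regions lay mostly outside gene boundaries too. That of best mean rank among those inside a gene was in Brd3, which encodes a bromodomain protein, at chr2:27505545-27505919, where −log10 q was 30.4 and 27.9 in E15 and 27.6 and 50.1 in E17. Another lay inside Tmprss11e, a membrane serine protease gene, at chr5:86730552-86731044, with 34.6 and 23.0 in E15 and 31.0 and 41.3 in E17, and all 4 other day 6 lists called it. At a gene boundary the strongest was at Meltf, with 22.6 and 20.7 in E15 and 29.2 and 42.45 in E17. At a new boundary region the strongest was near Spocd1, with 20.4 and 5.15 in mTEC4, and the next at Ddr1, a collagen receptor gene, with 3.46 and 6.77.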

How the data were processed

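ATAC-seq peak lists of 10 libraries, 2 per group, were used, of which 6 enter the comparison and 4 (mTEC1 and mTEC2) are set beside it. Per the submitters' processing notes, the authors used cutadapt, Bowtie2, Picard and MACS2 with mm10, versions not given in the sources used here, and neither is any shift of reads for the transposase. The deposited lists give each peak a score (10 times its −log10 q), a fold enrichment, a −log10 p and a −log10 q. Peaks were deposited per library, so replicates are separate lists. Read depth is unknown, and no interval was computed.

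Peaks of the 6 lists that overlapped by 1 bp or touched were merged, and each region was assigned to the nearest protein-coding gene within 100 kb. Gene positions and promoters came from RefSeq (GRCm38.p6), with start sites for 17492 of 21900 genes and gene ends for the other 4408. Library measures were compared by exact two-sided permutation over 15 arrangements. Named genes were 9 preset ones, the 10 listed and 10 other genes with the most regions of each class, and the nearest genes of the regions with the best mean rank. All listed symbols were matched. The members and lists were chosen with earlier results of these data known. Same-numbered samples did not deviate together across regions (correlations of -0.028 between E15 and E17, 8e-05 between E15 and mTEC4 and 0.0151 between E17 and mTEC4). The class calls were tested on simulated lists. Alternatives changed list length, threshold, merging, overlap, gene distance, flank and libraries. Python 3.11.15, pandas 2.3.3, numpy 2.4.6, scipy 1.17.1 and matplotlib 3.10.9 were used. Some genes that the naming rule selects are not reported here.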

Additional observations from a re-analysis of the deposited data

Results flagged for a closer look

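Among 19 sets of embryonic library values examined, 7 held a library far from the other 3 by Dixon's gap test, where chance gives about 1 in 20. With full lists, E17 replicate 2 covered 46.14 Mb and had 144 peaks on chromosome Y. At equal list length, E17 replicate 2 covered 26.9 Mb, had 46 peaks on chromosome Y, a median −log10 q of 11.02 and 100% of its peaks at a −log10 q of 5 or more, and E17 replicate 1 had 39.59% of its peaks outside genes and gene boundaries. E17 replicate 2 has the longest list of the 4. Its weakest peak kept at equal length had a −log10 q of 5.008, so the 100% is fixed by the cut. The 19 sets come from the same libraries and are not independent, so the rate of 1 in 20 does not apply to their number. The part of list length in the other values was not tested.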

How the results depend on the processing

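Lost regions came to 24233 at equal length, 24298 when ranked by fold, 3667 with 20000 peaks per list, 434 with 5000 and 22140 at a −log10 q of 5. New regions came to 1184 with 20000 peaks, 471 with 5000, 874 at a −log10 q of 2, 82 at 5 and 4286 where peaks had to cover 50% of the region. Retained regions came to 4400 with 20000 peaks, 763 with 5000, 2577 at a −log10 q of 5 and 2100 with 50% cover. Leaving out 1 library gave 8034 to 51279 new, 41258 to 52045 lost and 13039 to 23310 retained regions.

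The percent at gene boundaries was, for new regions, 1.055 at equal length, 61.36 with 5000 peaks, 0.4059 for a boundary of 500 bp and 1.674 for 2 kb, and 0.7034 to 1.248 with 1 library left out. For lost regions it was 6.458, 20.28, 5.391 and 10.04, and 6.742 to 11.1. For retained regions it was 67.56 at equal length, 63.84 for 500 bp and 67.77 for 2 kb, and 48.04 to 65.2. The mean percent of retained regions in the other day 6 lists was 75.42 to 89.78 with 1 library left out.

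The difference in the share of peaks at gene boundaries, 0.0404 percentage points, turned to -4.222 at equal length, -2.061 without mTEC4 replicate 2 and -1.256 without E17 replicate 2, with 2.142 at the other end. The Aire locus difference turned to 1 at equal length and was 0 without flanks. Other locus differences that moved were, at equal length, -6.25 at Foxn1, -11 at Trp63, -4.5 at Pou2f3, -5 at Dclk1 and 0.75 at Avil, and without flanks -6 at Foxn1, -1 at Psmb11, -0.75 at Ccl21a, -2.5 at Trpm5 and 1.5 at Avil. Over listed genes the mean difference was -1.829 without flanks and -1.216 at equal length, against -2.90. Tuft genes with a new region numbered 3 with 20000 peaks, 1 with 5000, 3 at a −log10 q of 2, 0 at 5, 7 with 50% cover and 12 to 20 with 1 library left out. TEC identity genes with a lost region numbered 5 and 2 with 20000 and 5000 peaks. These gene counts were added after the data were seen. The cause was not tested. All other settings, 175 for the leading results and 6 for single loci, were labelled as the same, by a loose rule. Library measures needed only the same sign, and shares in the other day 6 lists only had to stay within the spread between those lists. The mean share of new regions there was labelled the same at 11.42% and 11.71%, against 25.59%. So were 14 TEC identity genes with a lost region when peaks were ranked by fold, against 19.

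With the replicate number as a replicate block, 9 arrangements remained and the smallest possible exact permutation p was 0.111. The differences kept their values, among them -75.25 bp in median width (exact p = 0.111) and -40443 peaks (exact p = 0.222). Unknown depth limits every statement on a missing peak.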

Other observations

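Mesenchymal, microfold and secretory, and endothelial genes also lay near new regions, at 5 of 13, 5 of 15 and 4 of 13 genes, beside 16.7% of all genes. Among the mesenchymal genes, Pdgfra, a growth factor receptor gene, had 2 new and 2 lost regions, and Tcf21, a transcription factor gene, had 1 new and 4 lost ones. Gp2, a receptor gene of microfold cells, had 1 new and no lost region. Cdh5, the endothelial cadherin gene, had 2 new and 6 lost regions. These genes were picked after their values were seen. Chromosome Y held 1476 and 596 peaks in the mTEC4 lists, against 96 to 144 in the embryonic lists. It held 1179 and 649 in the mTEC1 lists and 868 and 187 in the mTEC2 lists.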
